A study of Mus musculus with 35 samples.

Results

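Kupffer cells (KCs) are the resident macrophages (macs) of the liver sinusoids. They settle before birth, maintain themselves locally and carry the lectin CLEC4F, and long-resident cells also carry TIM4, a receptor for phosphatidylserine on dying cells. When the niche is disturbed, blood monocytes can enter it and become KCs that carry CLEC4F but not yet TIM4, and other recruited macs carry neither.

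The genes described are 10 symbols selected on their measured counts, high in resident KCs and low in both recruited mac populations after 24 weeks on a Western diet, namely *Snrpn*, *Xlr*, *Abhd11os*, *Ric3*, *Efr3b*, *Raver2*, *Tnk2*, *Klhl13*, *Chst8* and *Erich3*. They are 10 of 54735 symbols in the count files and 10 of the 13421 genes that passed a filter of more than 1 CPM, a gene's counts divided by the library total times 1000000, in at least 5 libraries. Each of the 10 passed it on the ResKC libraries by themselves, and 5 of them (*Snrpn*, *Abhd11os*, *Ric3*, *Chst8* and *Erich3*) had too few recruited libraries over 1 CPM to pass without those. Bulk RNA-seq of liver macs sorted from male C57Bl/6J mice, whose diets began at 5 weeks of age, gave 35 libraries in 6 groups. CLEC4F+TIM4+ resident KCs (ResKCs) came from mice on a standard diet (SD) for 12 weeks (n = 7) or 24 weeks (n = 6) and from mice on a Western diet (WD) of fat and cholesterol, with sugar in the drinking water, for 12 weeks (n = 5) or 24 weeks (n = 6). CLEC4F+TIM4- monocyte-derived KCs (moKCs, n = 5) and CLEC4F- macs (n = 6) came from mice on the WD for 24 weeks, and there was no SD group of either. The labels name no transgene or deletion, the gates are all that separates resident from recruited cells in these groups, and the labels do not say whether each library is a separate mouse, so p-values measure the spread between libraries.

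Libraries held 11568590 to 15163845 counts, so 3 counts correspond to 0.198 to 0.259 CPM. *Timd4*, the gene of TIM4, averaged 732, 12.5 and 8.24 CPM in WD 24 week ResKCs, moKCs and CLEC4F- macs, and *Clec4f* averaged 12622, 9844 and 1718 CPM, so the RNA followed both gates. Replicate 4 of the CLEC4F- macs stood apart with 5488 CPM of *Clec4f* against 294 to 1539 CPM in the other 5 libraries. Replicate 4 of the WD 24 week ResKCs had the lowest level of its group for 8 of the 10 genes. As a whole library it did not stand apart, with a chi-square per degree of freedom of 19.1 to 29.9 against the rest of its group. Those libraries differed among themselves by 12.8 to 30.7. Results that rest on either replicate 4 are given with and without it. Replicate 1 of the moKCs differed from the other moKC libraries by a chi-square per degree of freedom of 48.8 to 60.3, against 14.4 to 30.9 among those. It had the highest moKC level of *Klhl13*, *Raver2*, *Ric3*, *Efr3b* and *Abhd11os*, but not of *Snrpn*, *Xlr* or *Tnk2*. Counts came from alignments named in 1 of 2 schemes in the file headers (22 and 13 libraries), and what the schemes mark is not stated. By first and second scheme, ResKC libraries at 12 weeks were 3 and 4 on the SD and 5 and 0 on the WD. At 24 weeks they were 6 and 0 on the SD and 3 and 3 on the WD. Scheme therefore cannot be fully told apart from diet or time within ResKCs.

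A reading of the 10 genes as confined to TIM4+ cells held at the limit of detection for *Erich3* alone, which had no count in any of the 11 recruited libraries. The remaining 9 had counts in at least 1 recruited library, and *Klhl13* in moKCs reached 22.4% of its WD 24 week ResKC mean. They are therefore described as genes high in ResKCs.

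The 10 genes do not form 1 pathway or 1 locus. *Snrpn* encodes SmN, an Sm protein of the spliceosome made from the paternal allele, and *Raver2* encodes an RNA-binding partner of the splicing repressor PTB. *Xlr* encodes a nuclear protein of an X-linked lymphocyte-regulated family. *Ric3* encodes a chaperone that helps nicotinic acetylcholine receptors assemble, *Efr3b* a membrane anchor of the kinase PI4KA, *Tnk2* a tyrosine kinase that binds active CDC42, *Klhl13* an adaptor of the CUL3 ubiquitin ligase and *Chst8* a sulfotransferase of N-glycans. *Abhd11os* is an RNA from the strand opposite *Abhd11*, and *Erich3* encodes a glutamate-rich protein known from cilia.

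In the GENCODE M21 annotation of mm10 the genes lie on 7 chromosomes. *Snrpn* (chr7:59982495-60140219), *Ric3* (chr7:109034312-109083331) and *Chst8* (chr7:34674468-34812711) are on chromosome 7, all on the minus strand, and *Xlr* (chrX:53777118-53797706) and *Klhl13* (chrX:23219271-23365082) are on the minus strand of chromosome X. *Abhd11os* (chr5:135012114-135013253) and *Efr3b* (chr12:3962554-4038915) are on the minus strand, and *Raver2* (chr4:101068983-101152370), *Tnk2* (chr16:32643874-32683493) and *Erich3* (chr3:154663859-154767790) are on the plus strand. Of the exon bases of *Snrpn*, 34.1% overlap exons of other annotated genes, *Snurf* among them, and 22.6% of its 75-base stretches recur in another gene's transcripts, so its counts depend on how shared reads were assigned. The share of recurring 75-base stretches was 9.8% for *Xlr* and at most 1.7% for the other 8 genes.

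RefSeq start sites gave 16 upstream windows of 250 bases for 9 of the 10 genes (build GRCm38.p6), with *Ric3* unmatched. The 5 windows shown belong to the splicing gene *Snrpn*, to both X-linked genes and to *Tnk2* and *Efr3b*, whose 24 week ResKC means were not lower on the WD. Each is written 5′ to 3′ on the gene's own strand, and capitals mark a match to a searched motif, with TTTATA being the TATA box TATAAA on the opposite strand. The *Tnk2* window lies inside the GENCODE gene body, ahead of a downstream RefSeq start, and the *Snrpn* window likewise. *Snrpn* had further windows that are not shown. None of those held a searched motif, including the window next to the 5′ end of the gene body (chr7:60140226-60140475).
Snrpn (chr7:60047979-60048228, minus strand): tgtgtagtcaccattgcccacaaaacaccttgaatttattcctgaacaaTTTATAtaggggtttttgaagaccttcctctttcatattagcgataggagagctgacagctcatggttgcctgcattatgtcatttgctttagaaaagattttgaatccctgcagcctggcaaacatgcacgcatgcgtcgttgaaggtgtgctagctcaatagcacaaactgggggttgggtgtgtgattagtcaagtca
Xlr (chrX:53797707-53797956, minus strand): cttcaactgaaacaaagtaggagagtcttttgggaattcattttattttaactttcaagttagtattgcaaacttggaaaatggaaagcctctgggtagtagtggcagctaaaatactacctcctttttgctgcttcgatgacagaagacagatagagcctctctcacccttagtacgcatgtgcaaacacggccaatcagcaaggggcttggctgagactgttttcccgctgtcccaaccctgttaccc
Klhl13 (chrX:23365083-23365332, minus strand): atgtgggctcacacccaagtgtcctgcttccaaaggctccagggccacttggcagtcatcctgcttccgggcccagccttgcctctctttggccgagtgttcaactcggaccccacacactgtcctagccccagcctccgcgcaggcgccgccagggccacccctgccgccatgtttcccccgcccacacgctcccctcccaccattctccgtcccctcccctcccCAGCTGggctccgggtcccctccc
Tnk2 (chr16:32672904-32673153, plus strand): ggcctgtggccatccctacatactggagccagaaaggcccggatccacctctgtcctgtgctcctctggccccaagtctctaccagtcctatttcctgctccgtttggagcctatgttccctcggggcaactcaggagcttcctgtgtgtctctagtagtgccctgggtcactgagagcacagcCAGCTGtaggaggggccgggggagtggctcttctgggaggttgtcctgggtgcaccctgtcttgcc
Efr3b (chr12:4038916-4039165, minus strand): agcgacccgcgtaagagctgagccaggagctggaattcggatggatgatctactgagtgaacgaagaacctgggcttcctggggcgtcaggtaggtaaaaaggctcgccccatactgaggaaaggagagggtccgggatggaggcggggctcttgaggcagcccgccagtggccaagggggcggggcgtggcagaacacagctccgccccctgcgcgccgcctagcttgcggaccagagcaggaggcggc

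In all, 8 short motifs were searched on both strands in these 16 windows and in all 32851 RefSeq windows of the same length. The E-box CAGCTG was in 3 of the 16 windows, those of *Tnk2* and *Klhl13* (2 overlapping windows), and in 13.0% of all windows. The TATA box was in 2 of the 16, of *Snrpn* and *Erich3*, and in 12.4% of all. None of the 16 held the PU.1 motif GAGGAAGT (2.44% of all), the MAF motif TGCTGAC (3.81%), the nuclear receptor motif AGGTCA (4607 of 32851), the SMAD motif GTCTAGAC (0.167%), the RBPJ motif GTGGGAA (5.42%) or the cAMP response element TGACGTCA (1.55%). The most CpG sites were in the *Raver2* window, with 33 and 74.0% GC, and the fewest in an upstream window of an inner *Klhl13* start, with 0 and 32.8% GC, where the median of all windows was 6 CpG sites and 52.4% GC. A match describes letters and is not a binding site.

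All 10 genes were low-abundance transcripts, and per kb of merged exon they spanned a wide range in ResKCs. The mean over the 24 ResKC libraries was highest for *Xlr* at 10.5 CPM per kb, followed by *Abhd11os* at 8.72, *Snrpn* at 6.07, *Klhl13* at 5.30 and *Raver2* at 4.03 CPM per kb. *Tnk2* (2.07), *Ric3* (1.30) and *Efr3b* (1.21) formed a middle range on the same scale, and *Chst8* (0.478) and *Erich3* (0.131 CPM per kb) were lowest. Levels between samples of 1 gene are given below as CPM after TMM scaling.

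**Figure D1:**
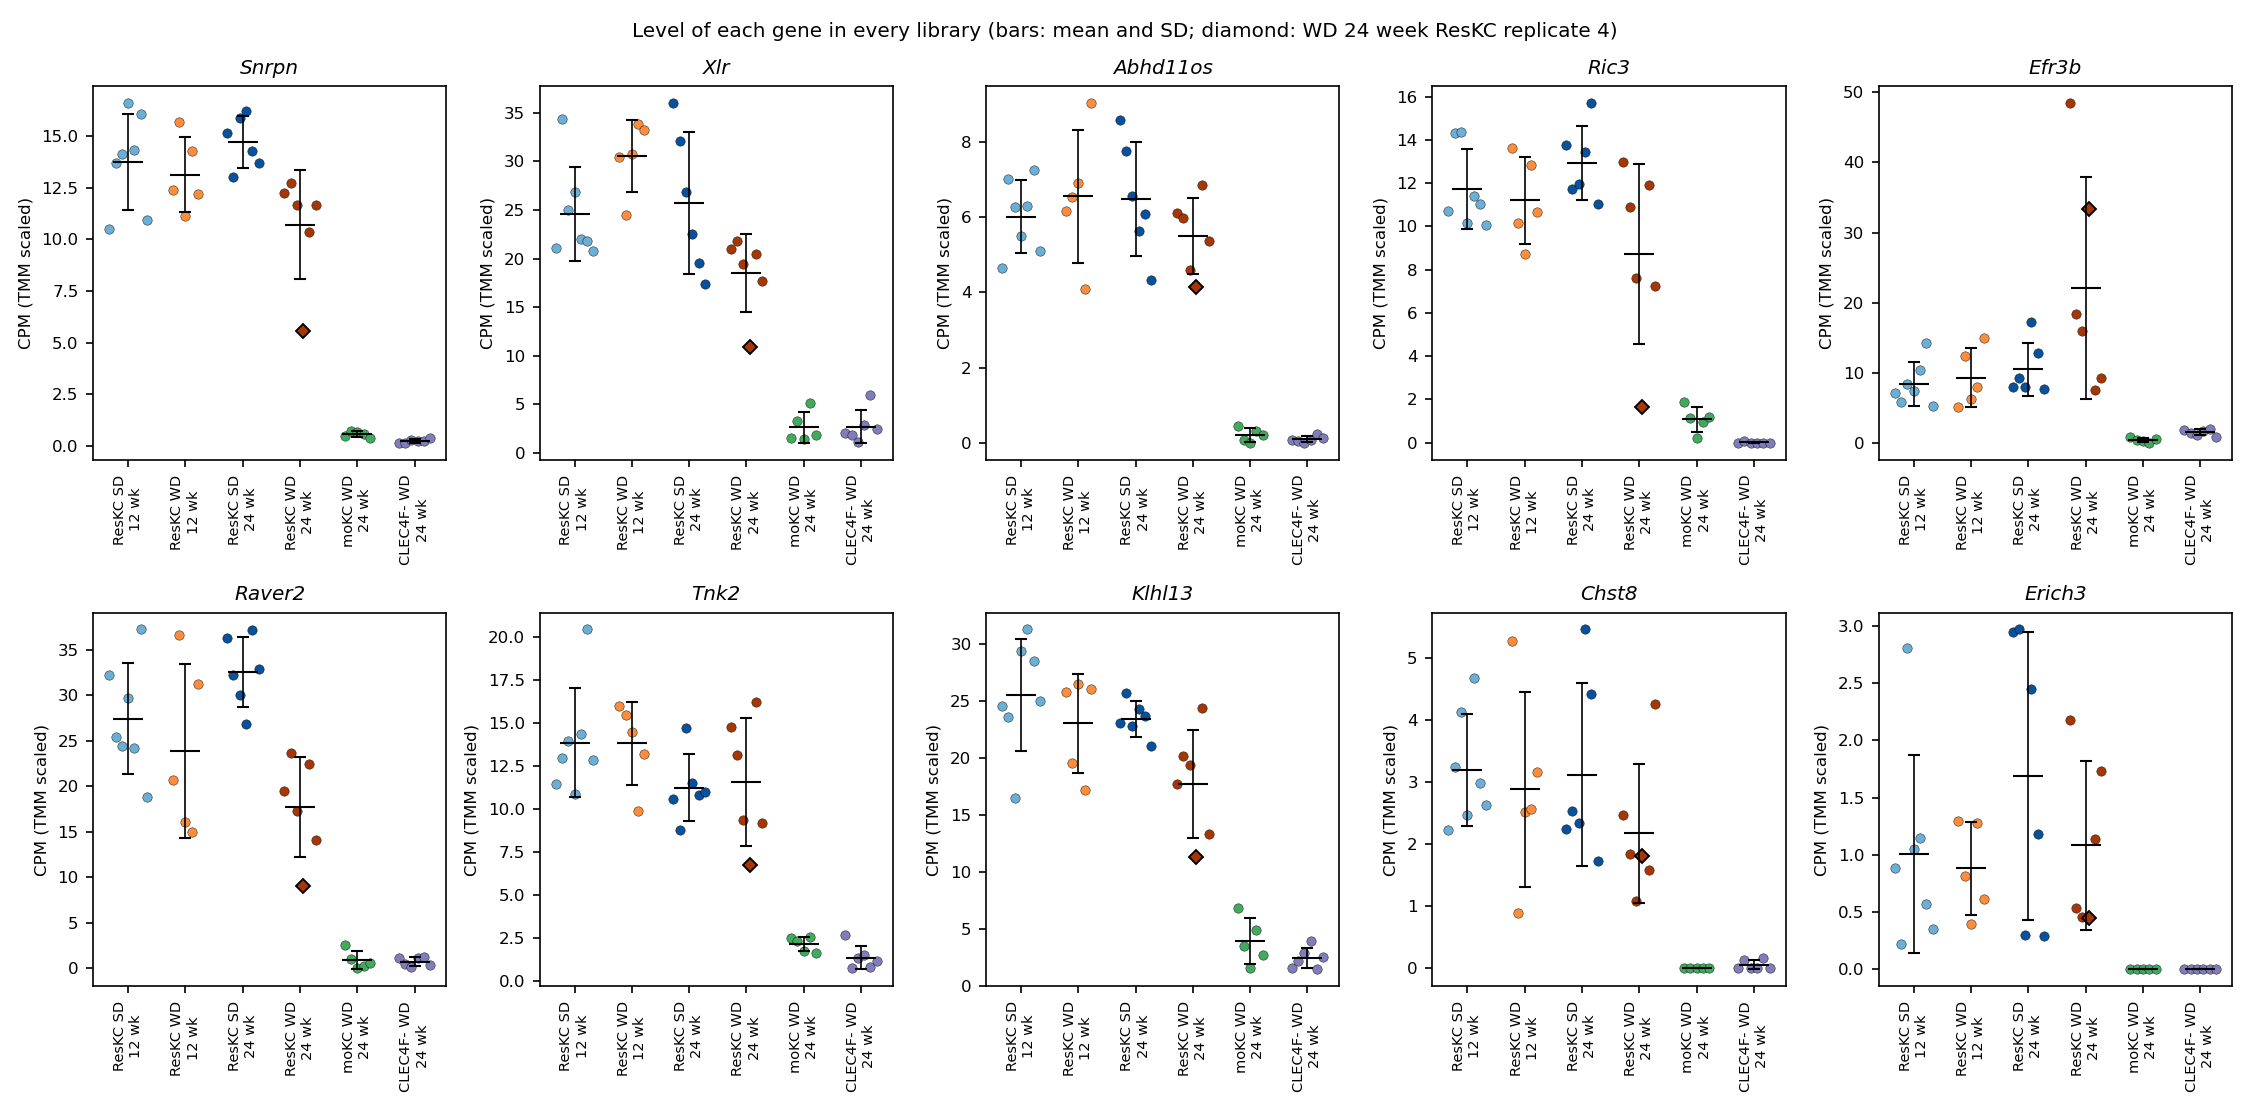
Level of each of the 10 genes in CPM (TMM scaled, vertical axis) in every library of the 6 groups (horizontal axis), with points for libraries and bars for the mean and SD. The 24 ResKC libraries sit above the 11 recruited libraries in every panel, except that the diamond (WD 24 week ResKC replicate 4) at 1.66 CPM of *Ric3* falls under the highest moKC library at 1.87 CPM.

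The splicing and RNA-binding genes were separated from both recruited populations without overlap of libraries, though other genes of the list had larger fitted differences. *Snrpn* had a lowest, median and highest level of 5.57, 11.7 and 12.7 CPM in WD 24 week ResKCs, 0.452, 0.712, 0.674, 0.557 and 0.366 CPM in the 5 moKC libraries, and 0.129, 0.231 and 0.355 CPM in CLEC4F- macs. The groups did not overlap, and the recruited libraries held at most 0.712 CPM. The fitted difference was 4.26 ± 0.22 (log2, SE) against moKCs and 5.53 ± 0.23 against CLEC4F- macs. *Raver2* had 9.03, 18.4 and 23.7 CPM in WD 24 week ResKCs, 2.52, 0.997, 0, 0.239 and 0.585 CPM in moKCs, and 0.194, 0.807 and 1.21 CPM in CLEC4F- macs. In moKCs, 1 library had no count and another 2.52 CPM, and all stayed under the lowest ResKC library. Its log2 differences were 4.28 ± 0.44 and 4.57 ± 0.42. Because these contrasts chose the genes, their sizes are descriptions and carry no test here, as holds for all folds of WD 24 week ResKCs over recruited cells.

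*Xlr* and *Klhl13*, both on chromosome X, kept the highest levels per kb of exon in recruited cells, with means of 1.14 and 0.932 CPM per kb in moKCs where *Tnk2*, the next, had 0.348. *Xlr* had 10.91, 19.96 and 21.8 CPM (lowest, median, highest) in WD 24 week ResKCs, 1.55, 3.27, 1.42, 5.17 and 1.83 CPM in moKCs, and 1.16, 2.25 and 5.97 CPM in CLEC4F- macs. The moKC mean was 14.3% and the CLEC4F- mean 14.7% of the ResKC mean, and the ranges of the recruited groups overlapped. *Klhl13* had 11.4, 18.6 and 24.4 CPM in WD 24 week ResKCs, 6.91, 3.56, 1.65, 4.93 and 2.78 CPM in moKCs, and 1.53, 2.44 and 3.95 CPM in CLEC4F- macs. Its moKC mean of 22.4% of ResKCs was the highest share among the 10 genes, with log2 differences of 2.15 ± 0.25 against moKCs and 2.82 ± 0.25 against CLEC4F- macs. That mean includes moKC replicate 1 at 6.91 CPM, and leaving out any 1 library of either group kept the difference against moKCs at 1.96 to 2.46. For *Xlr* the log2 differences were 2.81 ± 0.31 and 2.78 ± 0.29.

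The signalling genes differed in where their residual counts lay. *Tnk2*, the CDC42-binding kinase, had 6.70, 11.2 and 16.2 CPM in WD 24 week ResKCs, 2.45, 2.28, 1.72, 2.54 and 1.61 CPM in moKCs, and 0.712, 1.21 and 2.64 CPM in CLEC4F- macs. It was the narrowest but for *Klhl13* against moKCs, at a log2 difference of 2.44 ± 0.25 (3.09 ± 0.25 against CLEC4F- macs). *Efr3b*, the PI4KA anchor, had 48.5, 18.3, 15.96, 33.3, 7.54 and 9.23 CPM in the 6 WD 24 week ResKC libraries, 0.839, 0.356, 0.225, 0 and 0.585 CPM in moKCs, and 0.922, 1.62 and 2.02 CPM in CLEC4F- macs. Its ResKC libraries ranged from 7.54 to 48.5 CPM, and its moKC libraries all lay under its CLEC4F- libraries. Its log2 differences were 5.71 ± 0.53 and 3.87 ± 0.43. *Ric3*, the receptor chaperone, had 13.0, 10.9, 7.60, 1.66, 11.9 and 7.25 CPM in WD 24 week ResKCs, 1.87, 1.14, 0.225, 0.954 and 1.17 CPM in moKCs, and a single count (0.0647 CPM) in 1 of the 6 CLEC4F- libraries. The ResKC and moKC ranges of *Ric3* overlapped through ResKC replicate 4 alone. The log2 difference against moKCs was 3.00 ± 0.36, and the ratio of summed counts over library totals against CLEC4F- macs was 681, with an exact 95% counting interval of 122 to 26947.

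*Abhd11os*, the opposite-strand RNA, had 4.14, 5.67 and 6.84 CPM in WD 24 week ResKCs, 0.452, 0.0712, 0, 0.318 and 0.220 CPM in moKCs, and at most 0.242 CPM in CLEC4F- macs. The recruited libraries together held 15 counts in moKCs and 8 in CLEC4F- macs, and the log2 differences were 4.62 ± 0.38 and 5.73 ± 0.40. *Chst8*, the sulfotransferase, had 1.07, 1.82 and 4.26 CPM in WD 24 week ResKCs, no count in any moKC library and 4 counts in all in CLEC4F- macs. It was at least 48.8-fold higher in ResKCs than in moKCs, taking 3 counts over the moKC group as the floor, and 42.7-fold higher (exact 95% counting interval 16.4 to 159) than in CLEC4F- macs. *Erich3* had 0.452, 0.838 and 2.18 CPM in WD 24 week ResKCs and was at 0 in all 11 recruited libraries, which makes it at least 24.4-fold and at least 28.5-fold higher. Intervals and floors cover counting error only. In bulk RNA, fewer expressing cells and less RNA per cell cannot be told apart.

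Across the 10 genes the median log2 difference of WD 24 week ResKCs was 4.27 over moKCs (the same with 2 genes at their bounds) and 4.93 over CLEC4F- macs (4.70 with the gene that had no count in either at its bound), where the medians over all genes tested were -0.02 and -0.02. Without ResKC replicate 4 they were 4.40 and 5.02, and without CLEC4F- replicate 4 the second was 4.89. Within the libraries of the first naming scheme the medians were 3.91 and 5.06, and within the second 4.48 and 4.56, with 10 of 10 genes positive in each. By the lower of the 2 fitted differences, 56 genes had a log2 difference over 2 in both, which held all 10, from rank 1 for *Erich3* to rank 48 for *Klhl13*. Adjusted p under 0.05 was reached by 2.99% of all genes against moKCs and by 33% against CLEC4F- macs, and no count of the 10 genes is read against these shares since the contrasts chose them. The selection had no numeric threshold, so no values next to one can be given.

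**Figure D2:**
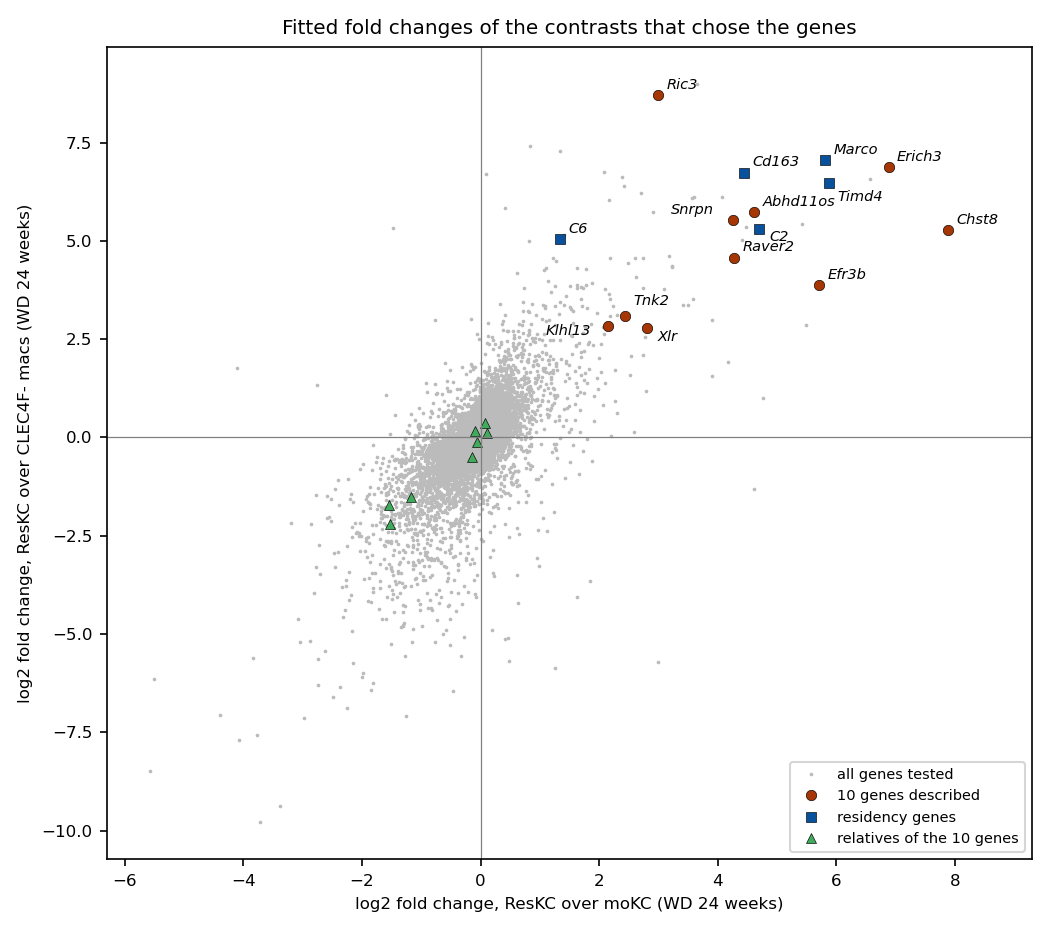
Fitted log2 fold change of WD 24 week ResKCs over moKCs (horizontal axis) and over CLEC4F- macs (vertical axis) for all genes tested (grey), the 10 genes (circles), 5 residency genes (squares) and relatives of the 10 genes (triangles). The 10 genes lie at 2.15 or more on both axes, and the relatives lie between -1.54 and 0.11 against moKCs. The 2 genes with no count in moKCs, *Chst8* and *Erich3*, have fitted values that depend on the prior count.

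The selection rule did not name the other 18 ResKC libraries (SD at 12 and 24 weeks and WD at 12 weeks), but it fixed the 11 recruited libraries as low. For 10 of 10 genes every one of the 18 lay above all 11 recruited libraries, as held for 165 of all 13421 genes (1.23%). With the low side fixed, and some of the genes past the filter only through ResKCs, these counts are descriptions and not independent support. The gap was wide for *Snrpn*, whose lowest of these 18 libraries held 10.5 CPM against a highest recruited value of 0.712 CPM, and for *Abhd11os*, with 4.09 against 0.452 CPM. It was narrow for *Erich3*, whose lowest of the 18 held 0.226 CPM. Over all 24 ResKC libraries the same held for 9 of 10 genes, *Ric3* being the exception through WD 24 week replicate 4, and for 84 of all genes.

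In ResKCs on the SD at 24 weeks, *Chst8* was at least 65.1-fold and *Erich3* at least 36.2-fold higher than in the moKCs of WD-fed mice, and *Ric3* was 10.9-fold higher (exact 95% counting interval 8.59 to 13.9). At 12 weeks on the SD the values were at least 69.0-fold, at least 21.8-fold and 10.04-fold (7.95 to 12.8). Diet differs between numerator and denominator in these ratios, so cell population and diet cannot be told apart in them. In those at 12 weeks, weeks on the diet and age differ as well and cannot be told apart either.

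Diet was compared within ResKCs at 12 weeks with libraries that the choice did not use. Of the 10 genes, 0 passed the edgeR quasi-likelihood test at an adjusted p under 0.05, where 5 of all genes did (0.0373%). Of the 10, 0 reached an unadjusted p under 0.05, where 1172 of all genes did in edgeR. DESeq2 called 44 genes and limma-voom 1, none of them among the 10. *Snrpn* had 10.5, 14.2 and 16.6 CPM with SD feeding and 12.4, 15.7, 11.2, 14.3 and 12.2 CPM with WD feeding, so the WD libraries fell inside the SD range. *Xlr* had the highest difference, 0.32 ± 0.26 (log2, SE), from 20.8, 22.0 and 34.4 CPM with SD feeding and 30.5, 24.5, 30.8, 33.8 and 33.2 CPM with WD feeding, and all WD libraries again lay inside the SD range (adjusted p = 0.762, edgeR). *Raver2* had the lowest, -0.20 ± 0.33, with 2 of 5 WD libraries under the lowest SD library (adjusted p = 0.902, edgeR). In sign, 7 of the 10 were negative, and the median was -0.07. The 95% interval ran from -0.39 to 0.26 for *Snrpn* and from -1.50 to 1.11 for *Erich3*, the widest, at the lowest counts.

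Time on the SD, compared between 24 and 12 weeks with libraries also outside the choice, moved none of the 10 past the test either. In edgeR 0 of 10 passed and 0 of all genes did (0%), with 1208 of all genes and 0 of the 10 at an unadjusted p under 0.05, while DESeq2 called 22 genes and limma-voom 0, none of them among the 10. The log2 differences ran from -0.30 ± 0.21 for *Tnk2* (10.8, 12.9 and 20.4 CPM at 12 weeks, 8.76, 10.9 and 14.7 CPM at 24 weeks) to 0.74 ± 0.58 for *Erich3* (0.226, 0.887 and 2.80 CPM, then 0.289, 1.82 and 2.97 CPM). Ranges at the 2 ages overlapped for both. The median was 0.10, with 7 of 10 positive. Without SD 12 week replicate 3, which held 2.80 CPM, the *Erich3* difference was 1.25 (adjusted p = 0.545, edgeR).

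Diet at 24 weeks gave lower means for most of the 10 genes, without any of them passing the test. The WD libraries here are among those that chose the genes, so this comparison shares samples with the choice. In edgeR 0 of 10 passed, where 1169 of all genes (8.71%) did. An unadjusted p under 0.05 was reached in edgeR by 3 of the 10 and by 3331 of all 13421 genes. DESeq2 called 2 of the 10 (*Snrpn*, *Efr3b*) and 1504 of all genes. With limma-voom 3 of the 10 (*Snrpn*, *Ric3*, *Raver2*) and 953 of all genes were called. The log2 difference was negative for 8 of 10, with a median of -0.47 where all genes had 0.00. Of the 4 ResKC groups, WD at 24 weeks had the lowest mean for 7 of the 10 genes.

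*Raver2* had 26.8, 32.5 and 37.1 CPM in SD libraries and 19.5, 23.7, 17.3, 9.03, 22.4 and 14.1 CPM in WD libraries at 24 weeks. Every WD library lay under every SD library, and the log2 difference was -0.88 ± 0.32 (adjusted p = 0.0832, edgeR). *Snrpn* had 13.0, 14.7 and 16.2 CPM in SD libraries and 12.3, 12.7, 11.7, 5.57, 10.3 and 11.7 CPM in WD libraries. Here too no WD library reached the SD range, at -0.46 ± 0.16 (adjusted p = 0.0643, edgeR). All 6 WD libraries lay under all 6 SD libraries for these 2 of the 10 genes and for 257 of all genes (1.91%). For *Klhl13* 5 of 6 WD libraries, and for *Ric3* 4 of 6, lay under the lowest SD library, with log2 differences of -0.40 ± 0.22 (adjusted p = 0.258, edgeR) and -0.57 ± 0.29 (adjusted p = 0.214, edgeR). *Xlr* (-0.47 ± 0.26), *Abhd11os* (-0.24 ± 0.27), *Chst8* (-0.52 ± 0.41) and *Erich3* (-0.64 ± 0.61) were negative with overlapping diets and adjusted p of 0.257 to 0.633 in edgeR.

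*Efr3b* went the other way. Its 24 week libraries held 7.65, 8.63 and 17.2 CPM in SD libraries and 48.5, 18.3, 15.96, 33.3, 7.54 and 9.23 CPM in WD libraries. The WD libraries were spread widely, with 3 of 6 above the highest SD library and 1 under the lowest. The log2 difference was 1.08 ± 0.37 (adjusted p = 0.0611, edgeR), and without WD replicate 1, the library at 48.5 CPM, it was 0.69 (adjusted p = 0.24, edgeR). Within the first naming scheme (3 WD and 6 SD libraries) *Efr3b* passed, at 1.40 (adjusted p = 0.032, edgeR), as did 501 of all genes. The median of the 10 genes there was -0.30. *Tnk2* showed 0.04 ± 0.22, with 2 WD libraries above and 1 under the SD range.

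Other values moved with diet at 24 weeks and their part in these differences was not tested. The summed level of 10 hepatocyte genes ran from 478 to 1406 CPM (median 1267) on the SD and from 1033 to 3447 CPM (median 1683) on the WD. The summed level of 8 sinusoidal endothelial genes ran from 685 to 1559 CPM (median 934) on the SD and from 470 to 906 CPM (median 735) on the WD. Of 10 immediate-early and heat-shock genes, whose sum had a median of 8863 CPM in SD libraries and 1953 CPM in WD libraries, 7 passed as lower on the WD. A difference between the diet effects at 24 and 12 weeks passed for 0 of the 10 genes in edgeR, DESeq2 and limma-voom (0.283% of all genes in edgeR). Of the 10, 1 had an unadjusted p under 0.05, *Xlr* at -0.79 ± 0.37, where 1886 of all genes did in edgeR.

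**Figure D3:**
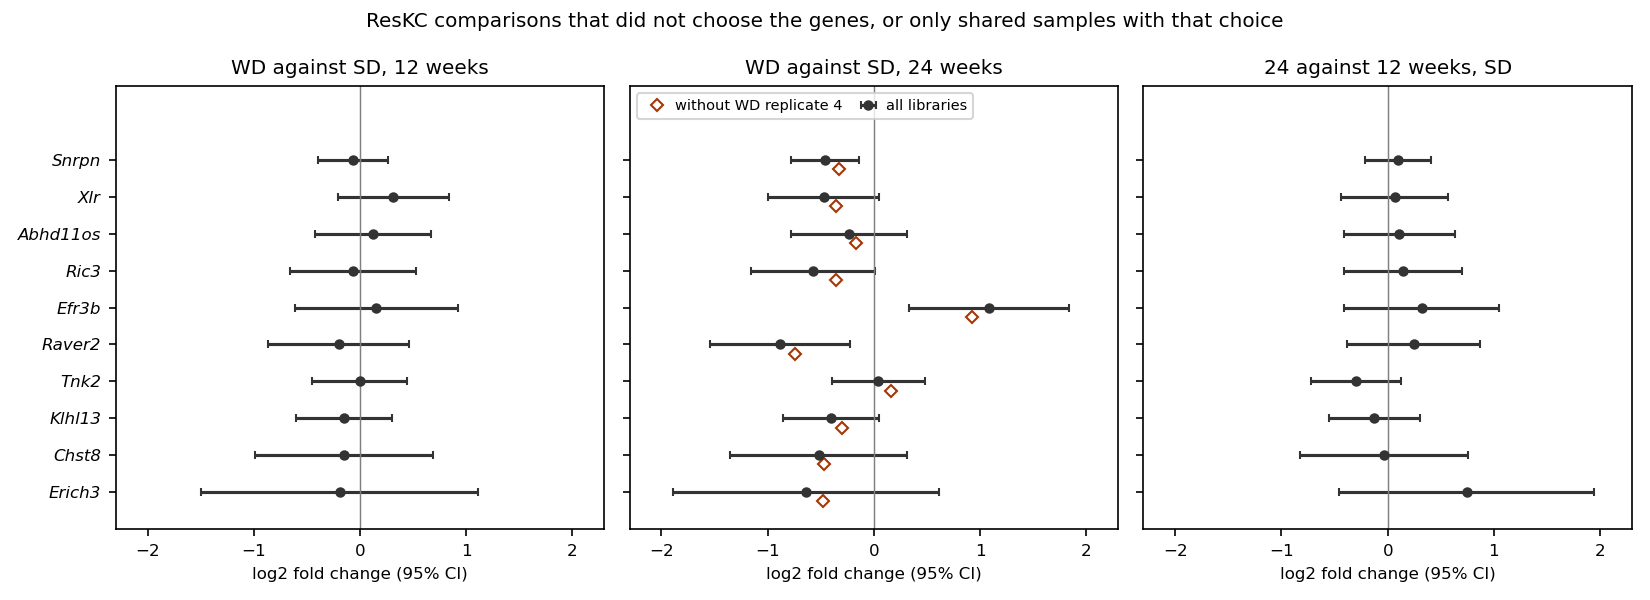
Log2 fold change with its 95% confidence interval (horizontal axis) of each of the 10 genes (vertical axis) in ResKCs for WD against SD at 12 weeks, WD against SD at 24 weeks and 24 against 12 weeks on the SD. At 24 weeks 8 of 10 genes lie left of 0, and open diamonds show the value without WD replicate 4, which leaves the same count left of 0 with a median of -0.34.

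In WD 24 week ResKC replicate 4, the 8 genes that were lowest of their group were so to unequal degrees. Against the median of the other 5 libraries it held 15.2% of *Ric3*, 39.6% of *Erich3*, 46.3% of *Raver2*, 47.7% of *Snrpn*, 51.1% of *Tnk2*, 53.2% of *Xlr*, 58.5% of *Klhl13* and 69.2% of *Abhd11os*. *Chst8* was at 98.2% and *Efr3b* at 209% of that median. Residency genes were low in the same library, with *C2* at 38.3%, *Marco* at 52.2%, *Cd163* at 52.3%, *C6* at 61.4% and *Timd4* at 70.2%. The 14 KC genes had a median of 98.9% and ran from 34.4% for *Clec4g* to 213% for *Cd207*, with 2 of 14 at the lowest and 1 at the highest level of the group. Other lists moved in this library as well. Of 8 sinusoidal endothelial genes 7 were lowest of the group, with a median of 40.2% and *Oit3* at 22.2%, and of 10 hepatocyte genes 4 were, with a median of 53.4% and *Cyp2e1* at 36.1%. The heat-shock genes *Hspa1a* and *Hspa1b* were highest of the group at 226% and 401%, while the median of the 10 immediate-early and heat-shock genes was 92.0%. Low values in this library thus included genes of other cell types, and the part of these lists in the levels of the 10 genes was not tested. Without this library, the 24 week diet difference was -0.33 for *Snrpn* (adjusted p = 0.153), -0.35 for *Ric3* (adjusted p = 0.376), -0.75 for *Raver2* (adjusted p = 0.170) and 0.93 for *Efr3b* (adjusted p = 0.139), all in edgeR.

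**Figure D4:**
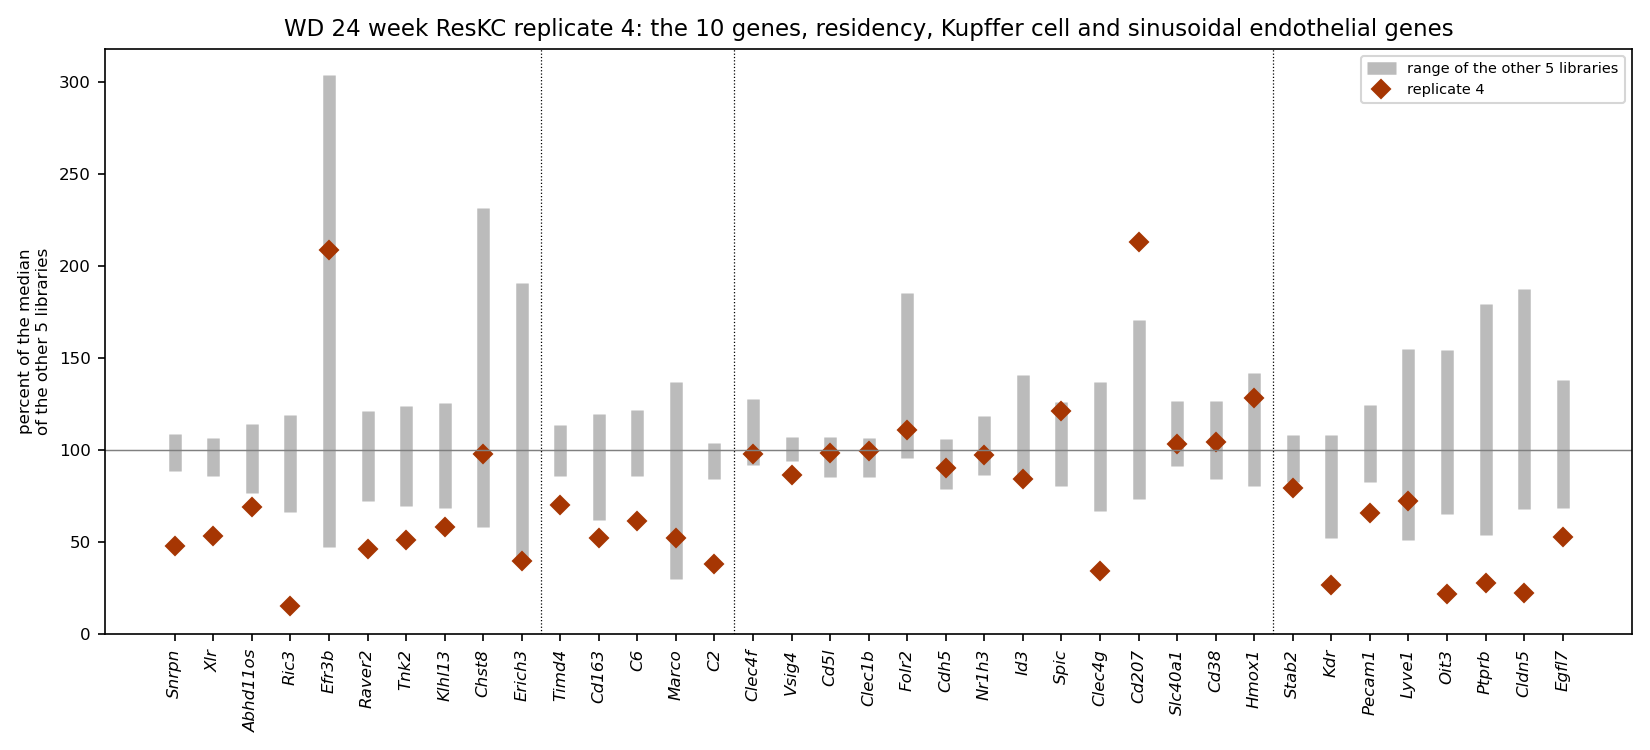
Level in WD 24 week ResKC replicate 4 as a percentage of the median of the other 5 libraries of its group (vertical axis) for the 10 genes, 5 residency genes, 14 KC genes and 8 sinusoidal endothelial genes (horizontal axis, in this order between dotted lines), with grey lines for the range of the other 5. Of the 10 genes *Ric3* is lowest at 15.2% and *Efr3b* highest at 209%, the KC genes spread from 34.4% to 213%, and the endothelial genes lie between 22.2% and 79.3%.

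The recruited populations were set beside each other as a description, since the choice had used both for being low. In addition, *Snrpn*, *Abhd11os*, *Ric3*, *Chst8* and *Erich3* cleared the filter only through ResKCs. *Ric3* had 76 counts over the 5 moKC libraries and 1 over the 6 CLEC4F- libraries. *Snrpn* had 38 and 19 counts, with every moKC library above every CLEC4F- library and a log2 difference of 1.27 ± 0.28. *Efr3b* had 29 and 128 counts, with every moKC library under every CLEC4F- library, at -1.84 ± 0.54. *Klhl13* (0.67 ± 0.26), *Tnk2* (0.66 ± 0.26), *Abhd11os* (1.12 ± 0.53) and *Raver2* (0.29 ± 0.51) had higher and *Xlr* (-0.03 ± 0.32) a nearly equal mean in moKCs. *Chst8* had 0 and 4 counts, and *Erich3* was at 0 in both. In edgeR *Ric3*, *Snrpn* and *Efr3b* lay under an adjusted p of 0.05, as did 16.4% of all genes, and nothing is read from that count. Without CLEC4F- replicate 4, the library with high *Clec4f*, the *Klhl13* difference was 0.85.

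Residency genes, a list that includes the TIM4 gene of the gate, gave shares for comparison. The paper also counts *Xlr*, which is described here and is not on this list, among residency genes. From the same bulk RNA-seq it named *Timd4*, *Cd163*, *C6* and *Marco* as specific to ResKCs, so their passing is not an independent result. Of 5, 4 passed as higher in ResKCs than in moKCs (all but *C6*) and 5 as higher than in CLEC4F- macs. In moKCs *Timd4* was at 1.70%, *Marco* at 1.80%, *C2* at 3.84%, *Cd163* at 4.62% and *C6* at 39.6% of the WD 24 week ResKC mean. *Efr3b* (1.81%), *Abhd11os* (3.86%), *Raver2* (4.91%) and *Snrpn* (5.16%) lay near the first 4 of these, from just above *Marco* to just above *Cd163*, and *Ric3* (12.3%), *Xlr* (14.3%), *Tnk2* (18.4%) and *Klhl13* (22.4%) between them and *C6*. *Timd4* itself ran from 2.85 to 30.3 CPM over the 5 moKC libraries. *C6* had 1268 CPM in moKC replicate 1 and 253 to 452 CPM in the others, so its share rests partly on that library. *Clec4f* in moKCs was at 78.0% of ResKCs, and of 14 KC genes 1 passed as higher in ResKCs (*Hmox1*, log2 1.16) and 1 as lower (*Cd207*, log2 -2.77), while against CLEC4F- macs 11 were higher and 1 lower. The monocyte receptor *Ccr2* averaged 6.03, 28.7 and 717 CPM in WD 24 week ResKCs, moKCs and CLEC4F- macs.

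The genes whose profile over the 6 group means was most like the mean profile of the 10 were *Timd4* (Pearson's r = 0.9993), *C2* (0.9993) and *Ubxn6* (0.9989), followed by *Gm5802*, *Bmpr1a*, *Dcbld1*, *Abcd4*, *Zfp87*, *Arhgef18* and *Marco*. Over all 35 libraries they were *Timd4* (0.984), *C2* (0.980), *Cd163* (0.974), *Bmpr1a* (0.971) and *Gm5802* (0.963). The measure compares shape and not size, as *Ubxn6* differed by only 0.20 (log2) between ResKCs and moKCs, while *Bmpr1a*, a receptor of bone morphogenetic proteins, differed by 3.58. All these profiles share 2 low groups, which the choice of genes fixed. By size of the lower difference, the 10 leading genes outside the list were *Hydin*, *Timd4*, *Marco*, *Rimklb*, *C2*, *Gm5802*, *Cd163*, *Colec12*, *Syt5* and *Adra2c*.

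Within ResKCs the 10 genes varied together only weakly. Over deviations of the 24 libraries from their group means, the median Pearson's r of the 45 pairs was 0.25, with 38 pairs positive and 10 over 0.5, against a median of 0.00 and 49.5% positive over pairs of all genes. Leaving out WD 24 week replicate 4 brought the median to 0.17 with 34 pairs positive. The pair *Snrpn* and *Ric3* went from 0.73 to 0.15 without that library, so its value rested on it, whereas *Xlr* and *Abhd11os* went from 0.59 to 0.53. *Ric3* had the highest mean r with the other 9 (0.40) and *Efr3b* the lowest (-0.01). The libraries share depth and sorting, and the correlations are descriptions.

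A list of 20 relatives of the 10 genes was drawn up by gene family. Of these 8 were tested and 0 passed against moKCs in edgeR, with a median log2 difference of -0.12. Against CLEC4F- macs, where 33% of all genes passed, 4 of the 8 did, each lower in ResKCs than in CLEC4F- cells (*Xlr4a*, *Xlr4b*, *Chst11*, *Chst12*). *Snrpb*, which encodes the Sm protein that SmN can replace, averaged 180, 187 and 196 CPM in WD 24 week ResKCs, moKCs and CLEC4F- macs. *Efr3a* averaged 161, 149 and 148 CPM and *Klhl9*, which pairs with *Klhl13*, 151, 161 and 134 CPM. None of these 3 passed against either recruited population.

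Known partners of the 10 proteins numbered 37. Of these 29 were tested, and 0 passed against moKCs, with a median log2 difference of 0.03. Against CLEC4F- macs 12 of the 29 passed, a share near the 33% of all genes, with a median of 0.05. Of the 12, 6 passed with a higher level in ResKCs than in CLEC4F- macs (*Pi4ka*, *Ttc7b*, *Axl*, *Mertk*, *Papss2* and *Abhd11*) and 6 with a lower one (*Snrpd1*, *Snrpd2*, *Snrpd3*, *Snrpe*, *Snrpg* and *Ttc7*). The Sm genes *Snrpb* and *Snrpf* and their assembly factor *Smn1* did not pass. With diet at 24 weeks 3 of the 29 partners passed, a share near the 8.71% of all genes. *Pi4ka* (log2 0.38, adjusted p = 0.0276, edgeR) and *Aurkb* (0.85, adjusted p = 0.00991, edgeR) were higher and *Papss2*, which makes the sulfate donor that sulfotransferases use, was lower (-0.55, adjusted p = 0.0363, edgeR). Of the imprinted genes around *Snrpn*, only *Ube3a* had enough counts to test, at 69.4, 63.5 and 65.5 CPM in the 3 populations, while *Snurf* and *Magel2* are listed at 0. *Snurf* shares exon bases with *Snrpn*, so its 0 depends on how shared reads were assigned and is not read as low expression.

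Within 200 kb of the bodies of the 10 genes 32 other genes were tested. Against moKCs 2 of the 32 passed, where 2.99% of all genes did, both higher in ResKCs, *Rtl8c* (log2 1.29, adjusted p = 0.0146, edgeR) and *Gm14597* (1.46, adjusted p = 0.0447, edgeR), both about 168 kb from *Xlr*. *Gm14597* averaged only 0.945 CPM in ResKCs and 0.339 CPM in moKCs. It and *Rtl8c* lie on opposite strands, with gaps to *Xlr* of 168139 and 168686 bases. With the strand setting of the counts not given, they may not be 2 separate results. Against CLEC4F- macs 15 of the 32 passed (33% of all genes), 11 as higher and 4 as lower in ResKCs. No test of these neighbours against other genes was made. *Abhd11*, which overlaps *Abhd11os* on the other strand, averaged 19.6, 16.8 and 15.3 CPM in ResKCs, moKCs and CLEC4F- macs (log2 0.22 against moKCs, adjusted p = 0.399, edgeR), and its r with *Abhd11os* over ResKC libraries was 0.04. *Jak1*, whose end overlaps *Raver2*, averaged 433, 401 and 366 CPM. *Adcy3*, 94 kb from *Efr3b*, averaged 52.8, 27.2 and 16.4 CPM (log2 0.95 against moKCs, adjusted p = 0.0644, edgeR). Whether counting used strand is not given in the sources used here, so reads in the 62 exon bases that *Abhd11os* shares with *Abhd11* cannot be assigned.

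**Figure D5:**
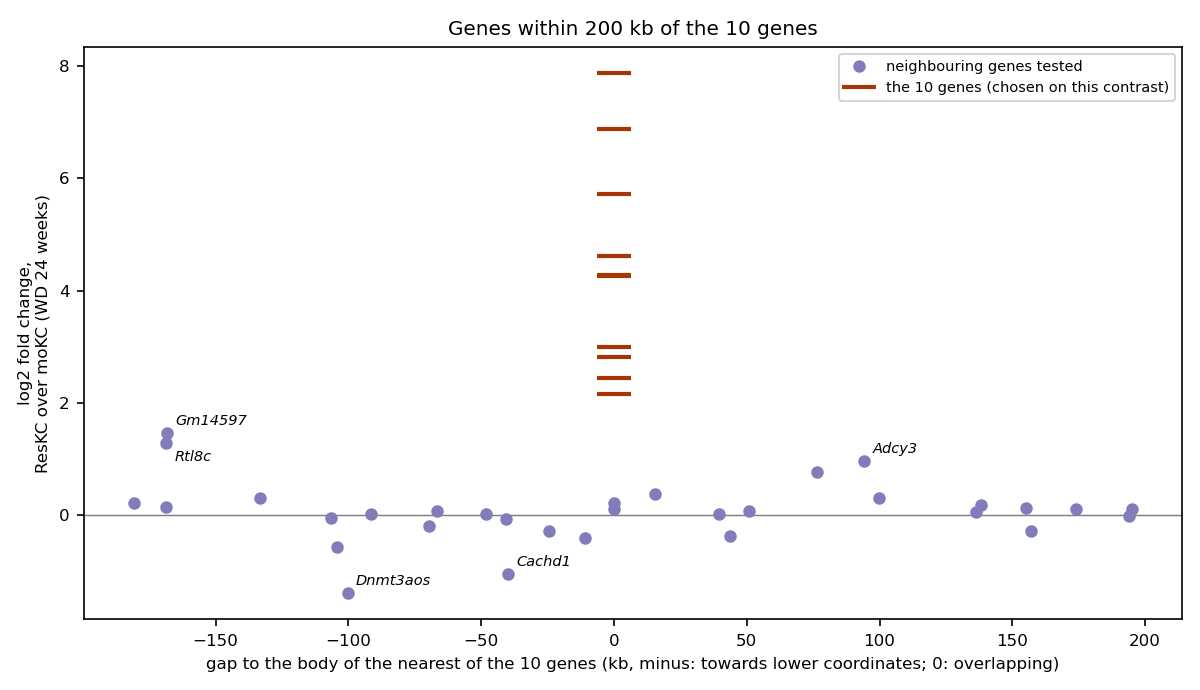
Log2 fold change of WD 24 week ResKCs over moKCs (vertical axis) of genes within 200 kb of the 10 genes, by the gap to the nearest of them in kb (horizontal axis), with bars at 0 for the 10 genes. Neighbours lie between the labelled *Dnmt3aos* and *Gm14597* (1.46), all under the lowest of the 10 genes at 2.15.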

How the data were processed

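The authors sequenced TruSeq libraries on a NextSeq500 as single reads of 75 bases, checked them with FastQC 0.11.9, aligned them to mm10 with HISAT2 2.2.0 (longest intron 1000000) and SAMtools 1.10, and deposited raw counts per gene from featureCounts 2.0.0. The annotation and strand setting are not given in the sources used here. The groups follow titles and descriptions. The diet field of the WD 12 week samples says standard diet and was not followed. No 2 libraries held identical counts.

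The 10 genes and all lists were chosen with earlier results of these data known. Genes over 1 CPM in at least 5 libraries (13421) were fitted in edgeR 4.0.16 (R 4.3.3) with TMM scaling, 1 mean per group over 35 libraries, quasi-likelihood tests and Benjamini-Hochberg adjustment over all genes. A gene passed at an adjusted p under 0.05. Named genes were the 10, lists of relatives, partners, imprinted neighbours of *Snrpn*, residency, KC, hepatocyte, endothelial, monocyte and immediate-early genes, tested neighbours within 200 kb, and those most like the 10 in profile or size. In simulated data with 200 of 13421 genes changed 4-fold, edgeR recovered 86.5% for diet at 12 weeks, 91% for diet at 24 weeks and 91.5% for time. The fitted diet and time differences of the 10 genes were all smaller than 4-fold. Recovery at such sizes was not simulated, so these shares do not describe the power for them. DESeq2 1.42.0, limma-voom (limma 3.58.1), other scalings, covariates, no filter and leaving out each replicate were alternatives. Gene positions are from GENCODE M21 (54183 of 54735 symbols matched) and upstream sequences from RefSeq (GRCm38.p6).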

Additional observations from a re-analysis of the deposited data

Results flagged for a closer look

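In groups of 4 to 10 libraries, the gap of the highest or lowest library to the next, as a share of the group's range, passed Dixon's 95% limit in 5 of the 57 groups of the 10 genes that could be tested, where chance gives about 1 in 20. *Snrpn* in WD 24 week ResKC replicate 4 was the lowest of its group at 5.57 CPM, with the next library at 10.3 CPM. *Xlr* in CLEC4F- replicate 5 was the highest of its group at 5.97 CPM, with the next at 2.85 CPM. *Tnk2* in SD 12 week ResKC replicate 6 reached 20.4 CPM, with the next at 14.3 CPM, and *Erich3* in SD 12 week ResKC replicate 3 reached 2.80 CPM, with the next at 1.15 CPM. *Ric3* in CLEC4F- replicate 2 was at 0.0647 CPM, which is 1 count where the other 5 libraries had none.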

How the results depend on the processing

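No alternative reversed a called direction. Among the 10 genes that covers only moKCs against CLEC4F- macs, since the other tested comparisons had no call in edgeR. For diet at 24 weeks the count of the 10 genes that passed, 0 in edgeR, was 2 with DESeq2 (*Snrpn*, *Efr3b*), 3 with limma-voom (*Snrpn*, *Ric3*, *Raver2*), 1 with library size alone (*Efr3b*), 1 with the hepatocyte genes as a covariate (*Efr3b*), 1 with only the groups compared (*Raver2*) and 1 within the first naming scheme (*Efr3b*), an alternative chosen after seeing the data. Leaving out 1 library gave 0 to 1, with *Efr3b* passing without SD 24 week replicate 4, WD 24 week replicate 5 or WD 24 week replicate 6. For moKCs against CLEC4F- macs no call is read, as this is a description. The count of 3 (2204 of all genes) became 1 with limma-voom (*Ric3*, 2314 of all genes). It was 2 with only the groups compared (*Snrpn* no longer passed, 1611 of all genes) and 0 within the second naming scheme (325 of all genes). Within the first scheme (1734 of all genes) *Klhl13* passed in place of *Efr3b*. Leaving out 1 library gave 3 to 4 of the 10 and 1635 to 2592 of all genes. The cause of these changes was not tested, and the naming scheme fits also held fewer libraries. Counts for diet at 12 weeks, time on the SD and the difference between the diet effects stayed at 0 of 10 under all alternatives run. Replicate numbers were not taken to pair the samples, since the labels tie no number to a mouse and no comparison had all its pairs over 0.1. Deviations of same-numbered libraries correlated at -0.357 to 0.024 for diet at 12 weeks, -0.023 to 0.13 for diet at 24 weeks, -0.134 to 0.199 for time, -0.118 to 0.095 for moKCs against CLEC4F- macs and -0.157 to 0.149 for ResKCs against moKCs. For ResKCs against CLEC4F- macs they ran from 0.024 to 0.263, over 0.1 in 4 of 6 pairs, and 8 of 12 libraries correlated best with their own number. There the replicate block gave a median log2 difference of 4.92 over the 10 genes, against 4.93 without it. With the replicate block, 0 of 10 passed for diet at 12 weeks, diet at 24 weeks and time, where 86, 1281 and 0 of all genes did. For moKCs against CLEC4F- macs 3 of the 10 and 2183 of all genes passed with it. Over all genes, diet at 12 weeks called 5, against 86 with the replicate block, 44 with DESeq2 and 0 to 84 without 1 library, and diet at 24 weeks called 1169, against 469 with the immediate-early covariate and 501 within the first naming scheme. The difference between the diet effects called 38, against 192 with DESeq2 and 8 to 98 without 1 library, and moKCs against CLEC4F- macs 2204, against 325 within the second scheme. Depth limits *Erich3* and *Chst8*, whose lowest ResKC levels lie near 3 counts or a few times that.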
